A study of Mus musculus with 12 samples.

Results

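The transcripts of 10 genes of the integrated stress response and the unfolded protein response were followed in spinal cord white matter of young and middle-aged mice, with and without a demyelinating lesion. They were chosen by name as 6 genes of the Atf4 arm (Atf4, Atf3, Ddit3, Trib3, Chac1 and Asns) and 4 genes of the endoplasmic reticulum (ER) chaperone arm (Xbp1, Hspa5, Hsp90b1 and Pdia4). The choice was made with earlier results of these data known. These 10 were found among the 46078 genes of the count table, and all 10 were among the 15866 genes that passed the filter on low counts. All mice were C57Bl6. Naïve and injured mice of each age made up 4 groups, the study's methods giving an age of 6 weeks (young) or 8 months (middle-aged), and injured tissue had received lysolecithin, a detergent-like lipid that strips myelin, 72 h (day 3) earlier. Naïve mice had no lesion, so that the effect of the injection itself cannot be told apart from that of lysolecithin. Each group had 3 libraries. Each library was a pool of 5 mice, cut from the ventrolateral white matter by laser capture microdissection and amplified before sequencing, so the spread between single mice was not measured.

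The integrated stress response begins with kinases that phosphorylate the initiation factor eIF2 when amino acids run short, when proteins misfold in the ER, or when viral RNA or heme deficiency is sensed. General translation then slows while Atf4 mRNA is translated more, and the Atf4 protein switches on genes for amino acid supply, redox balance and, if stress lasts, cell death. The unfolded protein response shares the kinase Perk (Eif2ak3) with it and adds the sensors Ire1 (Ern1) and Atf6, which raise chaperones and folding enzymes of the ER through spliced Xbp1 and cleaved Atf6. In white matter, oligodendrocytes carry a heavy load of membrane and secretory proteins, and the ER of phagocytes and of matrix-secreting cells is busy too.

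Both arms have known promoter elements, and these were looked up in the 10 genes before their levels are described. RefSeq promoter windows from 250 bases before to 50 bases after the start (GRCm38.p6) were available for all 10. The C/EBP-ATF response element, which Atf4 dimers bind, was searched as TGATGNAA on both strands, and the ER stress response element, read by Atf6 with a partner factor, as CCAAT followed 9 bases later by CCACG on both strands. The first stood in 4 of 6 windows of the Atf4 arm and in 0 of 4 of the ER chaperone arm, against 3.97% of all 32851 windows. The second stood in 0 of 6 and in 2 of 4, against 0.119% of all windows. The UPR element TGACGTGG, on both strands, was in no window of the 10 genes and in 0.676% of all windows. No window held the element of the other arm, but Atf4, Ddit3, Xbp1 and Pdia4 held neither, so the matches do not separate the arms in full. The elements were searched because they were already known for these arms, so the counts are no test of the grouping. Capitals mark the element or, where it lies on the other strand, its reverse complement. Each stretch is written 5′ to 3′ along the gene's strand, with 25 bases on either side, or cut to 11 or 5 where the longer stretch would reach an annotated exon. The Trib3 stretch reaches into the annotated gene even so, and those of Atf3, Asns and Hspa5 lie within it.
Atf3 (chr1:191183411-191183468, minus strand): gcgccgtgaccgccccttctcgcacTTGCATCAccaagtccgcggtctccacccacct
Trib3 (chr2:152344028-152344057, minus strand): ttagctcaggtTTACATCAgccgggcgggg
Chac1 (chr2:119351024-119351081, plus strand): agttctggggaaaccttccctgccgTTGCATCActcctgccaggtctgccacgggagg
Asns (chr6:7693214-7693243, minus strand): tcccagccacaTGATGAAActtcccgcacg
Hspa5 (chr2:34772020-34772048, plus strand): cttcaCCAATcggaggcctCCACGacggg
Hsp90b1, first match (chr10:86705613-86705681, minus strand): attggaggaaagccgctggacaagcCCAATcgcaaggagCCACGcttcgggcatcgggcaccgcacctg
Hsp90b1, second match (chr10:86705528-86705556, minus strand): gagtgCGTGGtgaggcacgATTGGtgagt

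A match is a run of letters and not a measured binding site, and the absence of one in Atf4, Ddit3, Xbp1 and Pdia4 says only that these letters are not in these windows. Of the 4 genes with the C/EBP-ATF element, Atf3 and Trib3 were called higher after injury and Chac1 and Asns were not. Among all tested genes with that element, 32.5% of 326 were called higher after injury in young and 34% in middle-aged mice, beside 29.1% and 30.4% of the 11510 tested genes with any window. Of the 18 tested genes with the ER stress element, Hspa5 and Hsp90b1 included, 8 (44.4%) were higher in young and 10 (55.6%) in middle-aged mice.

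**Figure D1:**
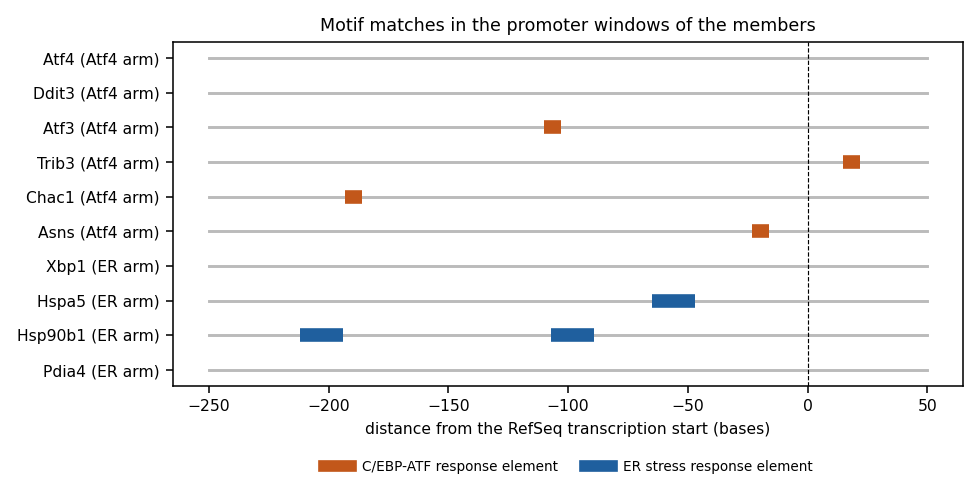
Matches to both elements in the promoter window of each member, with the distance from the RefSeq transcription start in bases on the x axis and 1 line per gene. The C/EBP-ATF element (orange) lies in Atf3, Trib3, Chac1 and Asns, and the ER stress element (blue) lies once in Hspa5 and at 2 places in Hsp90b1.

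The genes lie on the following stretches of GRCm38. Within the Atf4 arm these are Atf4 at chr15:80255184-80257541, Atf3 at chr1:191170296-191218039, Ddit3 at chr10:127290774-127296288, Trib3 at chr2:152337422-152344032, Chac1 at chr2:119351229-119354381 and Asns at chr6:7675169-7693254. Within the ER chaperone arm they are Xbp1 at chr11:5520659-5525893, Hspa5 at chr2:34771970-34777547, Hsp90b1 at chr10:86690209-86705509 and Pdia4 at chr6:47796141-47813430. Counts are of reads over exons. The Ddit3 exons share 186 of 1713 bases with neighbours, among them the antisense gene Mars1, and the Hsp90b1 exons share 632 of 4032 bases, among them with the antisense gene 1810014B01Rik. The strand setting of the counting is not given in the sources used here, so reads of these stretches cannot be assigned with certainty. The count of 1810014B01Rik was 628 to 1080 in the naïve and 1933 to 2887 in the injured pools, moving with Hsp90b1. That of Mars1 was 216 to 273 in young naïve and 403 to 405 in young injured pools, and 230 to 459 and 365 to 436 in the middle-aged ones. The part of these reads in the Ddit3 and Hsp90b1 values was not tested.

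The libraries held 9834447 to 12807437 counts. A count of 0 in 1 library therefore allows a level of up to 0.220 to 0.323 CPM (counts scaled to the library's size with TMM factors), taken as 3 counts, a limit that covers counting error only. The markers of cell types moved with injury. The 8 myeloid markers summed to 96.7 to 194 CPM in the naïve and to 1507 to 2087 CPM in the injured pools, with 8 of 8 called higher at each age. The 4 monocyte markers summed to 0.0906 to 1.54 and to 73.9 to 206 CPM, and the 4 fibroblast markers to 58.8 to 99.8 and to 288 to 1025 CPM. The 6 oligodendrocyte markers, which define the tissue, were present throughout and summed to 53009 to 101953 and to 7930 to 20256 CPM, with 6 of 6 called lower at each age. Astrocyte markers fell in 4 of 5 cases at each age. The 5 neutrophil markers did not exceed 3.08 CPM in sum, those of T cells 4.70 CPM and those of B and plasma cells 1.61 CPM. In such bulk samples more cells of a type and more RNA per cell cannot be told apart, and the part of these shifts in the results that follow was not tested.

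Injury raised 3 of the 6 genes of the Atf4 arm and all 4 of the ER chaperone arm, the same 7 genes at either age, and no member was called lower. Over all genes tested, 28.3% were called higher and 26.3% lower in young mice, and 29.2% and 29.3% in middle-aged mice. With library totals as the only scale, 5380 of the 8616 calls in young mice were higher, against 4483 of 8660 here, and the same 7 members were called. In CPM, the injured pools lay wholly above the naïve ones for 7 members in young and 8 (Asns added) in middle-aged mice, and for 35% and 31.5% of all genes. The 4 of 4 of the ER chaperone arm lay above that background, and the 3 of 6 of the Atf4 arm was closer to it. Of these 3, Trib3 passed the filter on low counts only through its injured pools, so it could hardly be called other than higher. Arms this short, chosen with earlier results known, allow no test against that background. Sizes differed more than counts. The median log2 fold change of the Atf4 arm was 0.34 in young and 0.53 in middle-aged mice, with single genes from -0.48 to 6.70 in young mice. The ER chaperone arm had medians of 1.08 and 1.39, with genes in young mice from 1.04 to 1.78. Over all genes the median log2 fold change was 0.00054 in young and -0.032 in middle-aged mice. A gene was called at an adjusted p under 0.05 in edgeR's quasi-likelihood test over all 12 pools, and a log2 fold change is given ± its standard error (SE).

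**Figure D2:**
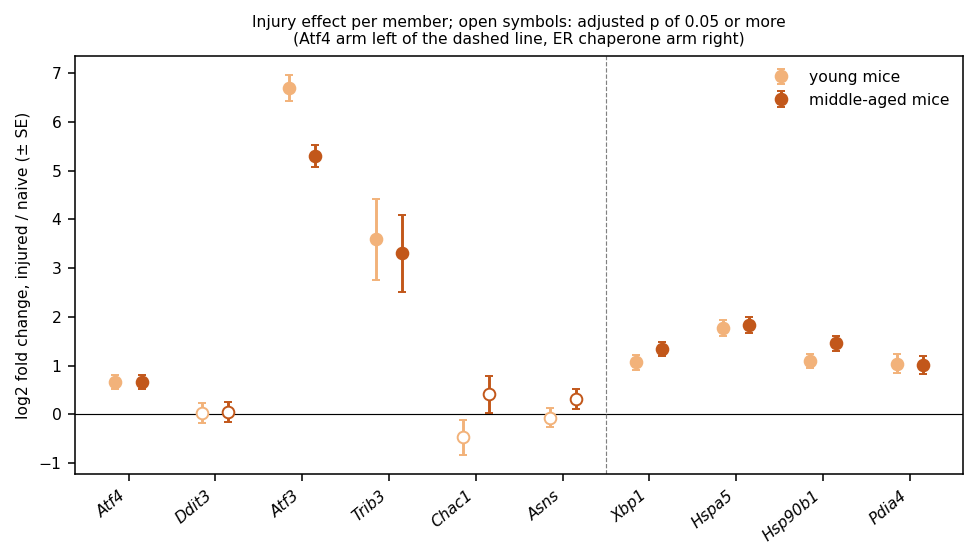
Injury effect of each member as the log2 fold change of injured over naïve pools (y axis, ± SE) in young (light) and middle-aged (dark) mice, 3 pools against 3. Atf3 reached 6.70 and 5.31, the ER chaperone arm lay between 1.01 and 1.83, and open symbols mark the values of Ddit3, Chac1 and Asns, which were not called at either age.

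Atf4 encodes the transcription factor at the head of its arm, which is controlled mainly at translation. Its level was 81.2, 84.7 and 68.2 CPM in the young naïve pools, 72.4, 107 and 83.4 CPM in the middle-aged naïve pools, 125, 123 and 124 CPM in the young injured pools and 132, 137 and 146 CPM in the middle-aged injured pools. Each injured pool was above every naïve pool, and the 3 young injured pools were almost level. The increase was 0.67 ± 0.14 in log2 in young (1.59-fold, adjusted p = 0.000965) and 0.66 ± 0.14 in middle-aged mice (1.58-fold, adjusted p = 0.000971). Of all genes tested, 27.2% and 27.6% had a higher log2 fold change than Atf4 in the same contrasts.

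Atf3, a stress-induced transcription factor that Atf4 and other signals switch on, had the largest change of the 10. Its counts were 10, 15 and 12 in the young naïve pools, 70, 30 and 43 in the middle-aged naïve pools, 1710, 1590 and 1656 in the young injured pools and 2324, 2184 and 1841 in the middle-aged injured pools. None of these groups overlapped another in CPM. The group means were 1.19 ± 0.242, 4.44 ± 1.98, 124 ± 1.15 and 175 ± 17.0 CPM (SD, n = 3), in the same order. The log2 fold change was 6.70 ± 0.26 in young (104-fold, adjusted p = 1.5e-10) and 5.31 ± 0.23 in middle-aged mice (39.5-fold, adjusted p = 2.92e-10). Only 0.908% of all tested genes had a higher log2 fold change at the young and 1.72% at the older age.

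Trib3, a pseudokinase that dampens Atf4 and Akt signalling, was the least abundant of the 10 in naïve tissue. Its counts were 4, 1 and 5 in the young naïve pools, 0, 0 and 13 in the middle-aged naïve pools, 34, 52 and 73 in the young injured pools and 42, 47 and 50 in the middle-aged injured pools. The third middle-aged naïve pool held all Trib3 counts of its group, and the injured pools stood above every naïve pool. The log2 fold change was 3.59 ± 0.82 (adjusted p = 0.00196) in young and 3.30 ± 0.80 (adjusted p = 0.00257) in middle-aged mice. Without middle-aged naïve replicate 3 the naïve group was at 0 in both remaining pools, and the fitted log2 value for middle-aged mice went to 8.48, which is no measure of size.

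The remaining genes of the Atf4 arm did not pass the test at either age. Ddit3, which encodes the pro-apoptotic factor Chop, had 9.57, 11.2 and 7.20 CPM in the young naïve pools and 11.3, 7.98 and 9.11 CPM in the young injured pools. Its middle-aged pools held 10.8, 10.2 and 11.1 CPM without and 12.2, 10.8 and 10.2 CPM with injury. The groups overlapped, with a log2 fold change of 0.017 ± 0.21 (adjusted p = 0.952) in young and 0.049 ± 0.21 (adjusted p = 0.854) in middle-aged mice. An interval of 2 SE on either side had bounds of -0.40 and 0.43 at the young age and of -0.36 and 0.46 at the older, so that an increase of the size of any gene of the ER chaperone arm lay outside it.

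Asns, the enzyme that makes asparagine, had 39.99, 33.8 and 21.7 CPM in the young naïve, 19.7, 28.2 and 28.0 CPM in the middle-aged naïve, 30.98, 28.5 and 31.8 CPM in the young injured and 34.3, 29.1 and 30.99 CPM in the middle-aged injured pools. The young groups overlapped, and the middle-aged injured pools were all above the middle-aged naïve ones. The log2 fold change was -0.068 ± 0.20 (adjusted p = 0.803) and 0.31 ± 0.21 (adjusted p = 0.208). Chac1, which degrades glutathione, had counts of only 14 to 56 in all 12 pools. Its groups overlapped after injury at both ages, with log2 values of -0.48 ± 0.37 (adjusted p = 0.291) in young and 0.41 ± 0.38 (adjusted p = 0.371) in middle-aged mice, and 2 SE on either side reached from -1.21 to 0.26 and from -0.35 to 1.16.

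**Figure D3:**
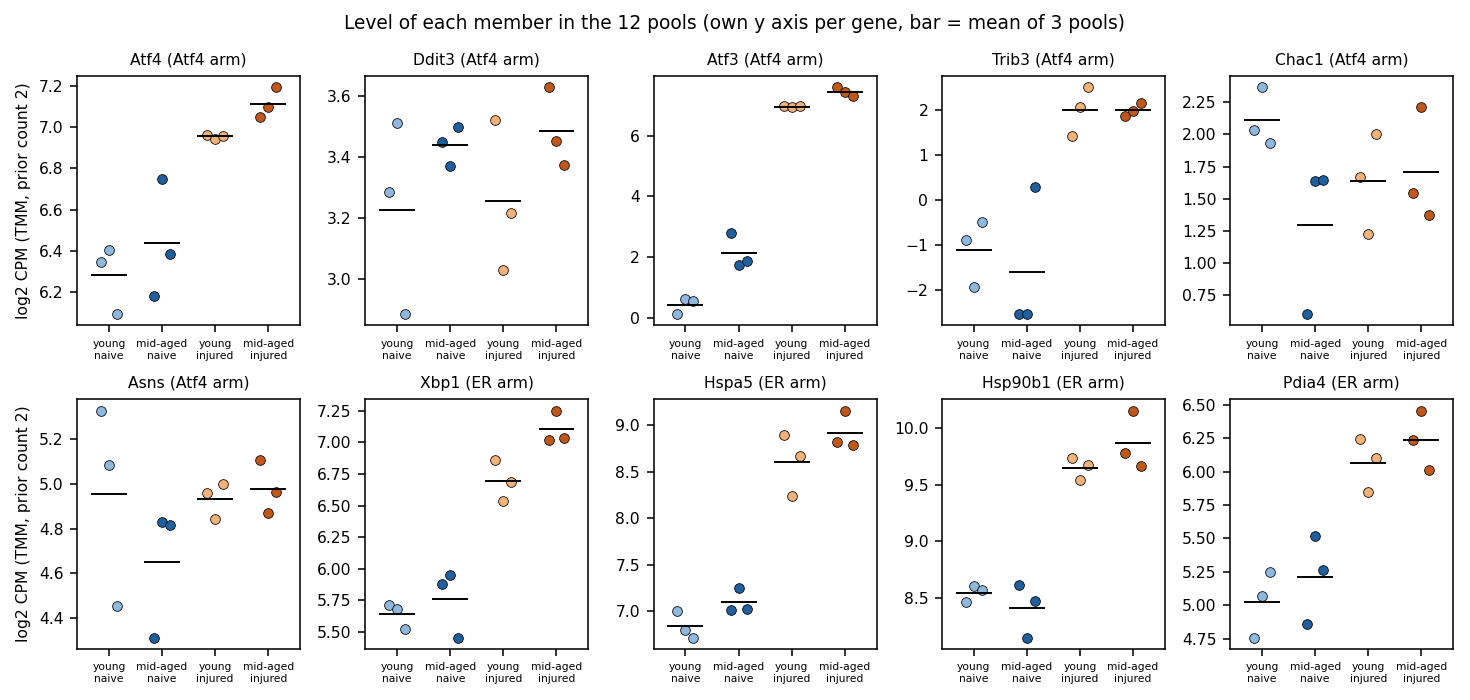
Level of each member in the 12 pools as log2 CPM (y axis, a separate scale for each gene), with 1 point per pool and a bar at the mean of 3 pools. Atf4, Atf3, Trib3 and the 4 genes of the ER chaperone arm have every injured pool above every naïve pool, and Ddit3, Chac1 and Asns do not.

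All 4 genes of the ER chaperone arm rose. Xbp1, whose mRNA is spliced by Ire1 into the form for an active transcription factor, had 52.4, 51.0 and 45.9 CPM in the young naïve, 58.6, 61.8 and 43.7 CPM in the middle-aged naïve, 116, 92.7 and 103 CPM in the young injured and 130, 152 and 131 CPM in the middle-aged injured pools. Every middle-aged injured pool was above every young injured pool, and both were above all naïve pools. The log2 fold change was 1.06 ± 0.14 (adjusted p = 2.29e-05) and 1.33 ± 0.14 (adjusted p = 2.21e-06). Gene counts do not separate spliced from unspliced Xbp1.

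Hspa5 encodes BiP, the main chaperone of the ER lumen and the brake on its sensors. It had 128, 112 and 105 CPM in the young naïve, 129, 152 and 130 CPM in the middle-aged naïve, 477, 301 and 406 CPM in the young injured and 450, 569 and 442 CPM in the middle-aged injured pools. The injured pools varied more among themselves than the naïve ones and stayed above them. Its log2 fold changes were the highest of the arm, 1.78 ± 0.16 in young (3.43-fold, adjusted p = 5.22e-07) and 1.83 ± 0.16 in middle-aged mice (3.55-fold, adjusted p = 3.4e-07).

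Hsp90b1 encodes Grp94, an ER chaperone for Toll-like receptors and integrins. Its young pools held 353, 389 and 380 CPM when naïve and 850, 744 and 815 CPM when injured. The middle-aged pools held 393, 284 and 356 CPM without and 879, 1137 and 814 CPM with a lesion. The naïve groups overlapped each other, as did the injured groups. The log2 fold change was 1.102 ± 0.14 (adjusted p = 1.57e-05) and 1.45 ± 0.15 (adjusted p = 9.61e-07). Pdia4, a protein disulfide isomerase, went in young pools from 26.9, 33.4 and 37.8 CPM without to 75.5, 57.5 and 68.5 CPM with a lesion. In middle-aged pools it went from 28.8, 45.5 and 38.2 to 75.2, 87.5 and 64.4 CPM. It changed least in this arm for both ages, by 1.04 ± 0.19 (adjusted p = 0.000295) and 1.01 ± 0.19 (adjusted p = 0.000316) in log2, and its injured pools did not overlap the naïve ones.

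Set side by side, the mean of each arm was higher in injured than in naïve pools. The mean log2 CPM over the 6 genes of the Atf4 arm in naïve pools was 2.65 ± 0.070 at the young and 2.72 ± 0.32 at the older age, and in injured pools 4.29 ± 0.14 and 4.46 ± 0.057 (SD, n = 3). That of the 4 ER chaperone genes was 6.51 ± 0.027, 6.62 ± 0.084, 7.75 ± 0.20 and 8.03 ± 0.20. The Atf4 arm minus the ER arm was -3.86 ± 0.081, -3.90 ± 0.37, -3.46 ± 0.19 and -3.57 ± 0.15 in the same order. The spread of the middle-aged naïve difference came with the third pool, at -3.48 beside -4.13 and -4.09, the pool with the 13 Trib3 counts. In the Atf4 arm, Atf3 and Trib3 carried most of the shift, and Ddit3, Chac1 and Asns were not called. In the ER chaperone arm all 4 genes contributed. By the median log2 fold change the Atf4 arm changed less, with 0.34 in young and 0.53 in middle-aged mice beside 1.08 and 1.39. By the mean log2 CPM it rose more, its difference from the ER arm going from -3.86 to -3.46 in young mice. In middle-aged mice that difference went from -3.90 to -3.57, with naïve and injured pools overlapping. The order of the arms thus depended on the summary used.

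**Figure D4:**
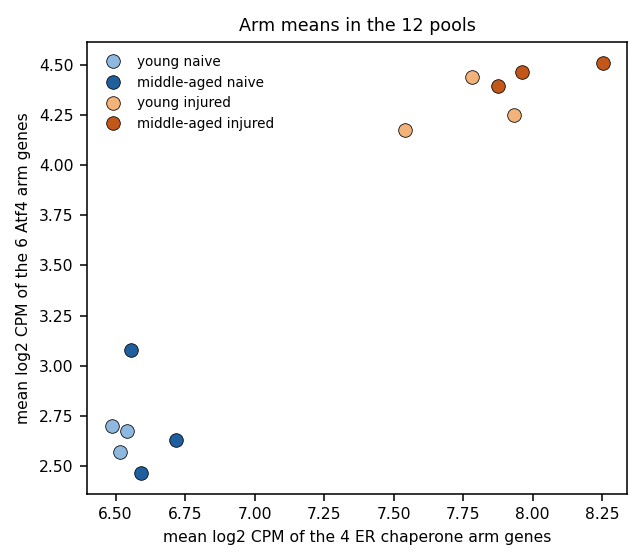
Mean log2 CPM of the 6 Atf4 arm genes (y axis) against that of the 4 ER chaperone arm genes (x axis), with 1 point per pool. The 6 naïve pools lie at 2.46 to 3.08 on the y axis and the 6 injured pools at 4.18 to 4.51, with no overlap on either axis.

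Per kilobase of exon, the order of levels changed with injury. In young naïve tissue Hsp90b1 stood highest at 92.8 ± 4.63 RPKM (CPM divided by exon length, SD, n = 3), followed by Atf4 at 33.1 ± 3.69 and Hspa5 at 27.2 ± 2.81. Xbp1 at 15.3 ± 1.05, Pdia4 at 13.6 ± 2.30 and Asns at 11.6 ± 3.40 RPKM came next. Their ranges of mean ± SD overlapped, and genes were not tested against each other within pools. Ddit3 was at 5.45 ± 1.18, Chac1 at 2.56 ± 0.430, Atf3 at 0.551 ± 0.112 and Trib3 at 0.156 ± 0.106 RPKM. In young injured tissue Atf3 was at 57.8 ± 0.535 RPKM, above Atf4 at 52.5 ± 0.364 and below Hspa5 at 93.3 ± 20.9 and Hsp90b1 at 199 ± 13.4 RPKM. Chac1 at 1.84 ± 0.510 and Trib3 at 1.89 ± 0.706 RPKM were lowest, with overlapping ranges of mean ± SD.

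Age was compared within each condition, using the same pools as the injury contrasts. In naïve white matter, 2.02% of all tested genes were higher and 1.78% lower in middle-aged mice. Among the members, Atf3 alone was called, 3.72-fold higher in middle-aged mice (1.89 ± 0.30 in log2, adjusted p = 0.00363), and this rested on counts of 10 to 15 against 30 to 70. The adjusted p of this difference ranged from 5.32e-07 to 0.154 over the 8 other settings, the highest coming from a fit of the 6 naïve pools alone. Of 6 immediate early genes, only Fos was called higher with age in the same pools (1.05 ± 0.20, adjusted p = 0.01), and 5 were not called. Of 8 myeloid markers, 5 were called higher too. The part of these cells in the Atf3 difference was not tested. Chac1 had 3.92, 4.99 and 3.66 CPM in young and 1.34, 2.94 and 2.96 CPM in middle-aged naïve pools, which did not overlap, as for 9.34% of all genes in this direction, but its log2 difference of -0.79 ± 0.38 did not pass the test (adjusted p = 0.281). The ER chaperone arm had log2 differences of -0.12 (Hsp90b1) to 0.25 (Hspa5), none of them called. The middle-aged pools lay wholly above the young ones for Atf3 and Hspa5, and for 7.77% of all genes.

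In injured white matter, 0.24% of genes were higher and 0.908% lower in middle-aged mice, and 0 of the 10 members were called by edgeR or DESeq2, with 2 at an unadjusted p under 0.05. These were Atf3, at 0.49 ± 0.18 in log2 (adjusted p = 0.289), and Xbp1, at 0.40 ± 0.14 (adjusted p = 0.265). The middle-aged pools of both, and those of Atf4, stood above all young pools, which held for 11.1% of all genes. Cell markers moved in this contrast too, with 5 of 6 oligodendrocyte and 2 of 4 fibroblast markers called lower in middle-aged mice. The monocyte markers summed to 73.9 to 113 CPM in young and 163 to 206 CPM in middle-aged injured pools, with none called. Their part in these values was not tested. With only the 6 injured pools in the fit, Atf3 (adjusted p = 0.0109) and Xbp1 (adjusted p = 0.05 after rounding) were called.

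Whether injury acted differently at the 2 ages was tested directly. It was called positive for 0.0567% and negative for 0.0819% of all genes, and for 0 of the 10 members with edgeR, with 1 at an unadjusted p under 0.05. That gene was Atf3, whose log2 fold change was lower by 1.40 ± 0.35 in middle-aged mice (-1.40, adjusted p = 0.146). DESeq2 called it (adjusted p = 0.0165), as did edgeR without a filter on low counts (adjusted p = 0.00837). The middle-aged value started from a higher naïve level and ended at a higher injured level. In the ER chaperone arm the differences ran from -0.026 for Pdia4 to 0.35 ± 0.20 for Hsp90b1 (adjusted p = 0.621), whose interval of 2 SE reached from -0.053 to 0.75.

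The other genes of both pathways were read from 9 lists, chosen with earlier results of these data known. Beside them stand the shares of all tested genes. These were 28.3% higher and 26.3% lower in young mice, and 29.2% and 29.3% in middle-aged mice. Of 16 other ER chaperones and foldases, 12 were higher after injury in young and 13 in middle-aged mice, and 0 were lower at either age. Sdf2l1, a partner of the ER chaperone Dnajb11, changed most with log2 values of 2.41 ± 0.26 and 2.28 ± 0.26, followed by the isomerase Pdia6 with 1.85 ± 0.18 and 2.07 ± 0.18. The smallest called increases were those of the lectin chaperone calnexin (Canx), at 0.35 and 0.73, and of Erp44, which retains cargo in the early secretory pathway, at 0.56 and 0.79. The list's median was 0.83 in young and 1.04 in middle-aged mice.

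ER-associated degradation and translocation had 15 genes, 14 of them tested, since Derl3 did not pass the filter. Of these, 7 were higher and 0 lower in young mice, and 9 were higher and 1 lower in middle-aged mice. Edem1, a lectin that sends misfolded glycoproteins to degradation, rose by 3.00 ± 0.17 and 3.18 ± 0.17 in log2, from 42.2 ± 3.40 to 337 ± 13.1 CPM in young mice (SD, n = 3). The translocon subunit Sec61b followed with 1.73 and 1.76. Ssr1, of the translocon-associated complex, changed by 0.27 and 0.34, and the dislocation factor Derl2 by 0.48 and 0.93.

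**Figure D5:**
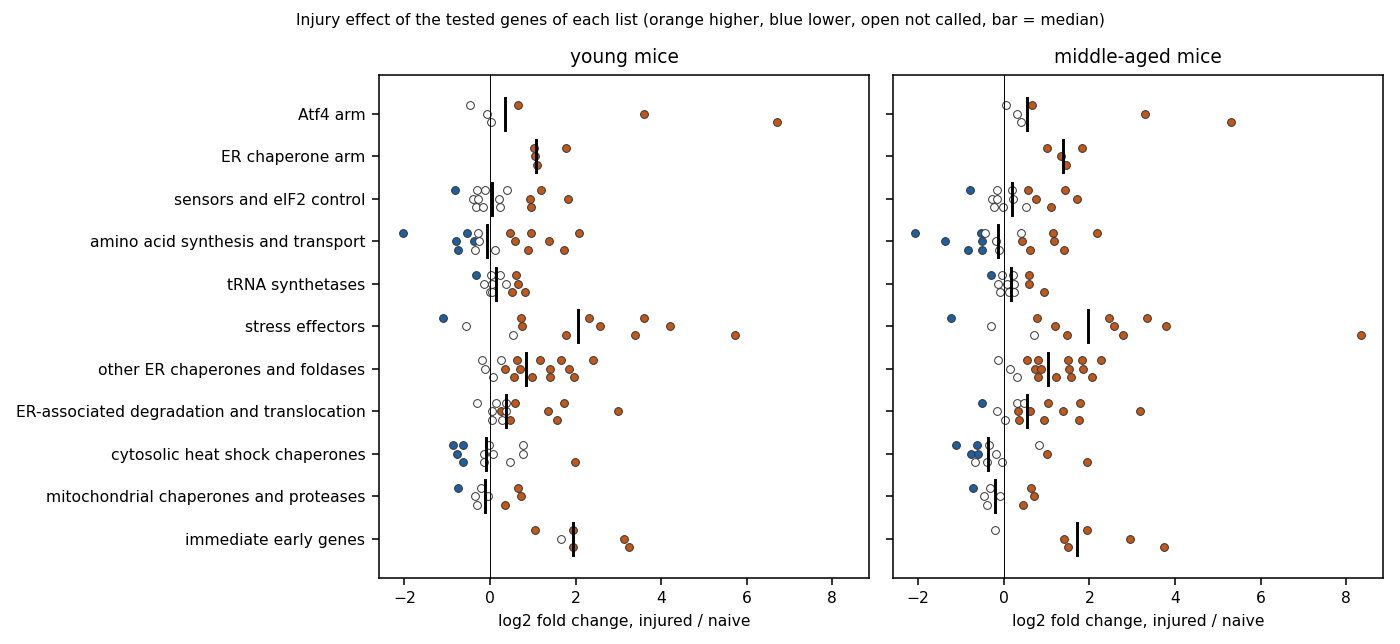
Injury effect of every tested gene of both arms and of the 9 other lists as log2 fold change of injured over naïve pools (x axis) in young (left) and middle-aged mice (right), with a bar at each list's median. The other ER chaperones have medians of 0.83 and 1.04, while the medians of amino acid genes (-0.074 and -0.15) and tRNA synthetases (0.14 and 0.16) lie near 0, and the point farthest right in middle-aged mice is Gdf15, whose naïve pools there are at 0.

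Sensors and eIF2 control showed no common direction. Of 14 genes, 4 were higher and 1 lower in young mice and 5 and 1 in middle-aged mice. The higher counts lay near the shares of all genes (28.3% and 29.2%), and the lower counts below theirs (26.3% and 29.3%). The double-stranded RNA kinase Eif2ak2 (Pkr), which interferon induces, rose by 1.83 ± 0.19 and 1.72 ± 0.19, and the sensor Ern1 by 1.20 ± 0.29 and 1.42 ± 0.29. The amino acid sensor Eif2ak4 (Gcn2) rose by 0.93 and 0.74. Eif2ak3 (Perk), the kinase that links both responses, had -0.12 ± 0.13 (adjusted p = 0.434) and -0.027 ± 0.13 (adjusted p = 0.869), and the heme-regulated Eif2ak1 had -0.31 and -0.23, also not called. Atf6 was called in middle-aged mice only (0.56 ± 0.12, adjusted p = 0.000807, beside 0.23 ± 0.12, adjusted p = 0.105, in young mice), and the test of its difference between ages is in the same fit, with adjusted p = 0.541. Ppp1r15a, the phosphatase subunit that reverses eIF2 phosphorylation, had 0.39 and 0.51, neither called. Eif2b4, a subunit of the exchange factor for eIF2, was lower, at -0.81 and -0.79.

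Genes of amino acid supply, several of them textbook targets of Atf4, were divided, as all tested genes were. Of 16 genes of amino acid synthesis and transport, 7 were higher and 5 lower in young mice, and 6 and 6 in middle-aged mice. Aldh18a1 of proline synthesis rose by 1.73 ± 0.16 and 2.17 ± 0.16, and the mitochondrial serine hydroxymethyltransferase Shmt2 by 1.37 and 1.41. The glycine transporter Slc6a9 fell from 368 ± 21.4 to 90.01 ± 10.02 CPM in young mice (-2.03 ± 0.15 in log2) and by a similar log2 value, -2.07 ± 0.15, in middle-aged mice, and Phgdh, the first enzyme of serine synthesis, had -0.76 and -1.37. Slc6a9 (adjusted p = 0.0433) and the large neutral amino acid transporter Slc7a5 (adjusted p = 0.0345) were also lower with age in naïve pools, at -0.58 and -0.52, and Slc7a5 again in injured pools (-0.55, adjusted p = 0.0432).

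Of 12 tRNA synthetases, 4 were higher and 1 lower in young mice and 3 and 1 in middle-aged mice. Here too the higher counts lay near the shares of all genes. Tars1 had 0.82 and 0.94, Iars1 0.66 and 0.58, Cars1 0.62 and 0.58 and Yars1 -0.34 and -0.31 in log2. Of the 14 stress effectors, 12 were tested, and 9 were higher and 1 lower at each age, with medians of 2.05 and 1.96. The translation repressor Eif4ebp1 rose from counts of 3 to 13 in the naïve pools to 98 to 166 in the injured ones (4.20 ± 0.39 and 3.79 ± 0.36). Gdf15, a secreted stress cytokine, had counts of 0 to 1 in young naïve and 0 in all middle-aged naïve pools, and 21 to 38 and 27 to 53 after injury. In middle-aged mice it was thus at least 11-fold higher, taken against a floor of 3 counts per library. Eif4ebp1 and Gdf15 passed the filter on low counts only through their injured pools, so they add little to the 9 called higher. Cebpg, a partner of Atf4, rose by 0.75 and 0.78, and the mTORC1 inhibitor Ddit4 was lower, at -1.09 and -1.24.

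Chaperones outside the ER were counted in the same way. Like the arms, these lists are too short for a test against the shares of all genes given above. Of 12 cytosolic heat shock genes, 1 was higher and 4 lower in young mice and 2 and 4 in middle-aged mice. Hspb1 rose by 1.99 ± 0.21 and 1.93 ± 0.20 and was also higher with age in naïve pools (0.84 ± 0.21, adjusted p = 0.0413). Dnaja1 had -0.64 and -0.59, Hspb8 -0.87 and -1.11 and Hsph1 -0.78 and -0.77. Hspa1a and Hspa1b of this list are near-identical, so their counts are uncertain. Of 8 mitochondrial chaperones and proteases, 3 were higher at both ages, namely Hspd1 (0.66 and 0.70), Hspe1 (0.72 and 0.63) and Hspa9 (0.35 and 0.46). The protease Clpp was called lower in young mice (-0.76, beside -0.47) and the cochaperone Dnaja3 in middle-aged mice (-0.73, beside -0.29 in young mice), both named after their values were seen. Of 6 immediate early genes, which respond to many stimuli and include partners of Atf3, 5 were higher at each age, with Junb at 3.13 and 3.75, Egr1 at 3.26 and 2.95, Fos at 1.93 and 1.497 and Jun at 1.05 and 1.41.

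The genes most like Atf4 and most like Hspa5 were sought over all 12 pools, among 13084 tested genes with a mean log2 CPM of at least 1. The measure was the root mean square difference of log2 CPM centred on each gene's mean. It counts the size of a change as well as its pattern. For Atf4 they were Ythdf2 (0.075), Rbbp7 (0.089) and Hspd1 (0.093), and for Hspa5 they were Zfp429 (0.13), Ptgfrn (0.14) and Rhoj (0.14). Of the other members, Pdia4 was closest to Atf4 (0.28) and Xbp1 closest to Hspa5 (0.33). Within its own arm Atf4 was closest to Asns (0.35) and farthest from Atf3 (2.71).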

How the data were processed

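Per the labels and the study's methods, the authors used FastQC 0.11.4 for quality and TopHat 2.0.10 (Bowtie 1.1.2) for mapping to GRCm38, and the deposited values are raw counts per gene from featureCounts. The annotation release, the strand setting and the treatment of shared reads are not given in the sources used here. Groups and replicate numbers come from the sample labels. Here edgeR 4.0.16 was run in R 4.3.3 (filterByExpr, TMM factors, glmQLFit, glmQLFTest), with all 12 pools in 1 model, 1 coefficient per group and Benjamini-Hochberg adjustment over 15866 genes (threshold 0.05). Log2 CPM carries a prior count of 2, and SE is log2 fold change over root F. Gene symbols were found for 98.2% of identifiers. The steps were tested on simulated data. The 10 genes and the lists were chosen with earlier results of these data known. From each list, the 2 highest and 2 lowest genes called alike at both ages are named, plus the sensors and Ppp1r15a. Slc7a5 was named after its values were seen. DESeq2 1.42.0, other scalings, filters, a replicate block, fits of only the pools compared and fits without each pool were alternatives.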

Additional observations from a re-analysis of the deposited data

How the results depend on the processing

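The 7 members called after injury at both ages were called in every alternative run, including each of the 12 fits without 1 pool, and their direction held throughout. The remaining calls depended on the fit. With no filter on low counts, the genes called were 1153 for age in naïve tissue, 437 for age in injured tissue and 329 for the difference of injury effects, and with DESeq2 they were 1111, 458 and 254, against 603, 182 and 22. In both, 1 member (Atf3) was called for that difference. With only the pools compared, 71 genes and 0 members were called for age in naïve tissue, where Atf3 had an adjusted p of 0.154, and 818 genes and 2 members for age in injured tissue. The cause of these shifts was not tested, apart from the number of genes or pools that each fit changes by construction. With 1 pool left out, 261 to 800 genes were called for age in naïve tissue, 45 to 410 for age in injured tissue and 3 to 56 for the difference. The lowest came without young naïve replicate 2, middle-aged injured replicate 2 and young injured replicate 2, the highest without middle-aged naïve replicate 1 for the first and replicate 2 for the other two. No member's call changed with a pool left out.

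Values that were not called changed sign in some settings. Library totals as the only scale shifted the median log2 fold change of all genes by 0.20 in young and by 0.11 in middle-aged mice for injury. Under it Asns was 0.13 for injury in young mice and -0.013 for age in injured tissue, the difference of injury effects was -0.059 for Ddit3 and -0.036 for Hspa5, and 8 of 31 calls of that difference were positive, against 9 of 22. Upper quartile factors gave -0.029 for Ddit3 after injury in young mice. Without 1 pool, the range for injury was -0.28 to 0.13 for Asns and -0.13 to 0.17 for Ddit3 in young and -0.023 to 0.11 for Ddit3 in middle-aged mice. For age in naïve tissue it was -0.0049 to 0.29 for Atf4 and -4.95 to 0.78 for Trib3. For age in injured tissue it was -0.30 to 0.25 for Trib3, -0.22 to 0.32 for Chac1 and -0.0092 to 0.10 for Asns. For the difference of injury effects it was -0.13 to 0.16 for Atf4, -0.12 to 0.19 for Ddit3, -0.84 to 4.89 for Trib3, -0.12 to 0.21 for Hspa5 and -0.18 to 0.14 for Pdia4. Both extreme values of Trib3 come without middle-aged naïve replicate 3, which held its group's 13 counts.

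The replicate numbers did not pair the pools: the correlation of deviations of same-numbered pools ran from -0.11 to 0.15 over 18 pairs and was over 0.1 in 2. With the number as a replicate block, 8577 and 9153 genes were called for injury, 529 and 189 for age and 31 for the difference, no member's call changed, and Trib3 was -0.012 for age in naïve tissue, 0.028 for age in injured tissue and 0.040 for the difference. Replicates differed by more than sampling noise in each of the 12 pairs within groups (chi-square per degree of freedom of 7.94 or more). At counts as low as those of Trib3 and Chac1, depth limits what can be seen.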
